A study of Saccharomyces cerevisiae with 5 samples.

Results

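The cytosolic ribosomal protein genes of budding yeast (Saccharomyces cerevisiae) were followed on 5 expression arrays. The set holds every gene whose annotated symbol begins with RPL or RPS and goes on with a number and an optional A or B, together with the stalk genes RPP0, RPP1A, RPP1B, RPP2A and RPP2B. Of 137 such genes in the gene table, 127 had a matched probe set among the 5449 genes measured. Of the 127, 75 belong to the large subunit, stalk included, and 52 to the small subunit. The other 10 were not analysed here. Each gene was represented by the probe set with the highest mean over the 5 arrays. On 2 arrays the RNA was that of a PHO2 deletion mutant, whose parent strain the labels do not name, and on 3 that of wild-type FY4 yeast. All cultures grew exponentially in batch in minimal medium with glucose, and per the series description they were harvested at equal cell density. PHO2 encodes a homeodomain transcription factor known for its part in purine synthesis and the phosphate response.

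A yeast ribosome is built from ribosomal RNA and a single copy of most ribosomal proteins, and their genes are transcribed at high and closely matched rates. Rap1, with the forkhead-like factor Fhl1 and its coactivator Ifh1, drives most of their promoters in growing cells, and signalling through TOR, Sch9 and Sfp1 ties them to growth. Most of the proteins are encoded by a pair of paralogs, named A and B, which arose in the genome duplication of this lineage and often differ in few residues. Because the paralogs are so alike, a probe set can read both, and the array marks such probe sets by a suffix.

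PHO2 itself did not differ beyond the spread of the arrays, at log2 signals of 10.07 and 10.84 on the PHO2 deletion arrays, against 10.72, 10.54 and 10.38 on the wild-type arrays (difference -0.09, SE 0.24, limma adjusted p = 0.825). Where its probes lie relative to the deleted stretch is not stated, so the arrays are named by their labels, and directions below rest on those labels. Markers of a cells were expressed in both groups, with STE2, the receptor for alpha-factor, at 14.36 ± 0.04 (SD, n = 2) on the PHO2 deletion arrays and 14.16 ± 0.07 (SD, n = 3) on the wild-type arrays. Of 6 such markers, ASG7 rose (difference 1.24, SE 0.14, adjusted p = 0.0192 by limma), and of 4 markers of alpha cells STE3 rose (0.93, SE 0.14, adjusted p = 0.0312), where 3.17% of all genes were called upward. The mean of STE3 was low, at 8.50 on the PHO2 deletion arrays and 7.58 on the wild-type arrays. The other alpha markers were not called, with differences of 0.79 for MF(ALPHA)1, 0.07 for SAG1 and -0.21 for MF(ALPHA)2. Nor were the other a markers, which differed by 1.38 (MFA1), 1.11 (MFA2), 0.20 (STE2), 0.16 (STE6) and 0.14 (BAR1). Without wild-type replicate 3 MFA1 differed by 1.10 and MFA2 by 0.72. All 6 a markers were higher on both PHO2 deletion arrays than on any wild-type array, as were 27.1% of all genes. ASG7 missed the threshold without either PHO2 deletion array or wild-type replicate 1, and STE3 without any array but PHO2 deletion replicate 2. Across all genes the PHO2 deletion arrays correlated at r = 0.994, and the wild-type arrays at 0.988 to 0.995. Wild-type replicate 3 stood apart for short genes. Over 908 genes of at most 600 nt, its median log2 deviation from each gene's wild-type mean was -0.18, against 0.05 and 0.17 on wild-type replicates 1 and 2. The PHO2 deletion arrays also stood apart for these genes, at 0.33 and 0.31. Their median difference was 0.32, or 0.23 without wild-type replicate 3. The main values that wild-type replicate 3 moved are also given without it. Whether each replicate was a culture of its own is not said, and the p-values cover only the spread among these 5 samples, part of which may be technical. Precision is limited by how few arrays there are.

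No ribosomal protein gene passed the test between the PHO2 deletion and the wild-type arrays. Of 127, 0 rose and 0 fell (limma, adjusted p below 0.05 over all genes), while 5.05% of all genes were called, 3.17% upward and 1.87% downward. At an unadjusted p below 0.05 the set held 11 genes, 5 with a positive and 6 with a negative difference, or 8.66% of its members, against 29.4% of all genes. With a trend in eBayes 1 member was called, with array weights 2, and with a correction for gene length 1. The median log2 difference of the set was 0.03, with quartiles at -0.07 and 0.16, beside a median of 0.01 and quartiles of -0.11 and 0.17 over all genes. Positive differences were seen for 78 members and negative ones for 49, but only 35 were positive after the correction for gene length. Differences of over 0.5 log2 units in either direction were seen for 6 members, 4.72% of the set, and for 9.01% of all genes, and all 6 were positive. The count was 1 member, RPS28A, and 6.92% of all genes without wild-type replicate 3.

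Array by array the set moved little. The median deviation of its members from their wild-type means was 0.05 and 0.01 on the PHO2 deletion arrays, and 0.02, 0.04 and -0.06 on the wild-type arrays. The lowest array was thus wild-type replicate 3, and wild-type replicates 1 and 2 lay between the PHO2 deletion arrays. Without wild-type replicate 3 the median difference of the set was 0.0020 and 66 members were positive. The signals of the PHO2 deletion and the wild-type arrays did not overlap for 42 members with the deletion higher and for 35 with it lower. These are 33.1% and 27.6% of the set, against 27.1% and 25.9% of all genes, which are near to them. For 104 of the 127 members the 95% interval of the difference lay within 0.5 log2 units on either side of no difference, and for 122 within 1 unit. Of all 5449 genes, 4009 and 5035 had intervals within these limits. A p that misses the threshold does not show that levels were equal, and these intervals give the sizes the data allow. Member signals were bright, with a median log2 level of 14.23 and 123 members at 13 or more, on arrays whose highest gene averaged 15.19. How far the top of the signal range narrows differences was not tested.

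**Figure D1:**
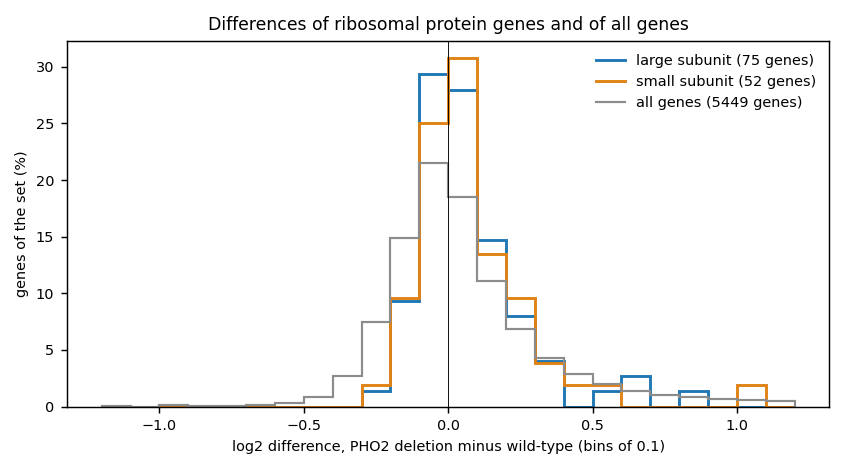
Percentage of genes (y axis) by log2 difference, PHO2 deletion minus wild-type, in bins of 0.1 (x axis, drawn to 1.2 on either side), for the large subunit, the small subunit and all genes. Both subunits peak near 0, and 6 members lie above 0.5.

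Large and small subunit genes did not part from each other. The large subunit had a median log2 difference of 0.03 (quartiles -0.08 and 0.16), and the small subunit likewise 0.03 (quartiles -0.06 and 0.16). The median of the large minus that of the small subunit was -0.0064. Both medians were smaller without wild-type replicate 3, at 0.00049 for the large and 0.0081 for the small subunit. Deviations by array ran in parallel. For the large subunit the medians were 0.06 and 0.0047 on the PHO2 deletion arrays, against 0.02, 0.04 and -0.06 on the wild-type arrays. For the small subunit they were 0.05 and 0.01 on the PHO2 deletion arrays, against 0.0055, 0.04 and -0.05 on the wild-type arrays. The 18 members with no paralog, such as RPL3, RPL10 and RPS3, had a median difference of 0.03, and so did the 109 members of paralog families. Leaving out wild-type replicate 3 gave 0.02 for the members with no paralog and 1.5e-06 for the others.

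The highest differences belonged to genes for very small ribosomal proteins, and in each of them wild-type replicate 3 was the lowest array. RPS28A (YOR167C), which encodes a small protein of the small subunit, had log2 signals of 13.82 and 14.05 on the PHO2 deletion arrays, against 13.39, 13.33 and 11.996 on the wild-type arrays. Both PHO2 deletion values lay above all wild-type values, but wild-type replicate 3 lay further from the other wild-type arrays than those did from the PHO2 deletion arrays. The difference was 1.03 (SE 0.45, 2.04-fold, 95% interval from -0.12 to 2.18, limma adjusted p = 0.20), and without wild-type replicate 3 it was 0.57. RPL41A (YDL184C), for the smallest protein of the ribosome, at the bridge between the subunits, had 7.82 and 8.32 on the PHO2 deletion arrays, against 7.69, 7.83 and 6.26 on the wild-type arrays. Its groups overlapped, and it was the 1 member with any array below the background bound of 6.44, again wild-type replicate 3. RPL41A differed by 0.81 (SE 0.51, limma adjusted p = 0.336), or by 0.31 without that array, and its probe set is marked as shared between sequences.

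RPL29 (YFR032C-A), for a small protein of the large subunit known to help the subunits join, gave 14.37 and 14.51 on the PHO2 deletion arrays, against 14.10, 14.06 and 13.22 on the wild-type arrays. RPL39 (YJL189W), whose product lines the exit tunnel of the nascent chain, gave 14.03 and 14.08 on the PHO2 deletion arrays, against 13.65, 13.73 and 12.95 on the wild-type arrays. RPS29A (YLR388W), for a zinc-binding protein of the small subunit, gave 14.10 and 14.22 on the PHO2 deletion arrays, against 13.82, 13.67 and 13.33 on the wild-type arrays. In these 3 genes, picked for their high differences, the PHO2 deletion arrays lay above every wild-type array, as they did for 27.1% of all genes. RPL37A (YLR185W), for a zinc-binding protein of the large subunit, did the same, with 14.09 and 14.19 on the PHO2 deletion arrays, against 13.90, 13.81 and 13.15 on the wild-type arrays. The differences were 0.64 for RPL29 (SE 0.29), 0.61 for RPL39 (SE 0.25), 0.55 for RPS29A (SE 0.15) and 0.52 for RPL37A (SE 0.24). None of the 4 passed the test (limma adjusted p from 0.10 for RPS29A to 0.211 for RPL37A). Without wild-type replicate 3 they were 0.36, 0.36, 0.41 and 0.29, so RPL29, RPL39 and RPL37A moved by more than 1.5 times. With the correction for gene length RPL29 differed by 0.07, RPL39 by 0.35, RPL37A by 0.33, RPS28A by 0.47 and RPL41A by 0.24, and RPS29A turned to -0.02. RPS29A is read by a probe set marked as cross-reacting. Its other probe set, not so marked, gave a difference of 0.65.

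At the low end the differences were smaller and the replicates closer. RPL4B (YDR012W), for a large subunit protein with a loop in the exit tunnel, gave 13.27 and 13.30 on the PHO2 deletion arrays, against 13.52, 13.52 and 13.64 on the wild-type arrays. The groups were clearly apart, with SDs of 0.02 (n = 2) and 0.07 (n = 3). The difference of -0.28 (SE 0.06, 95% interval from -0.44 to -0.11) left 82.5% of the wild-type level and had the smallest adjusted p of the set, 0.0749 by limma. RPL4B was called with a trend in eBayes (adjusted p = 0.0443) and with array weights (0.0459). RPS14B (YJL191W), whose pre-mRNA is known to be bound by the Rps14 protein, gave 12.68 and 12.65 on the PHO2 deletion arrays, against 13.004, 12.95 and 12.80 on the wild-type arrays. Its values did not overlap either, and it differed by -0.25 (SE 0.08, limma adjusted p = 0.121), or 84.0% of the wild-type level. With array weights RPS14B was called at -0.30 (adjusted p = 0.0481).

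RPS7B (YNL096C), for a small subunit protein, gave 13.90 and 13.79 on the PHO2 deletion arrays, against 14.04, 13.99 and 14.03 on the wild-type arrays. RPL13A (YDL082W), for a large subunit protein, gave 13.93 and 13.86 on the PHO2 deletion arrays, against 14.06, 14.11 and 14.03 on the wild-type arrays. The large subunit genes RPL6B (YLR448W) and RPL9B (YNL067W) complete the lowest 6, and in all of them every PHO2 deletion value lay below every wild-type value. The 6 were picked for their low differences, and 25.9% of all genes likewise did not overlap with the deletion lower. The differences were -0.18 for RPS7B, -0.17 for RPL13A and -0.16 for RPL6B (SE 0.06 each), and -0.16 for RPL9B (SE 0.08), with limma adjusted p from 0.132 to 0.25. Without wild-type replicate 3 RPL9B differed by -0.09, and the other 3 by -0.18, -0.19 and -0.15.

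**Figure D2:**
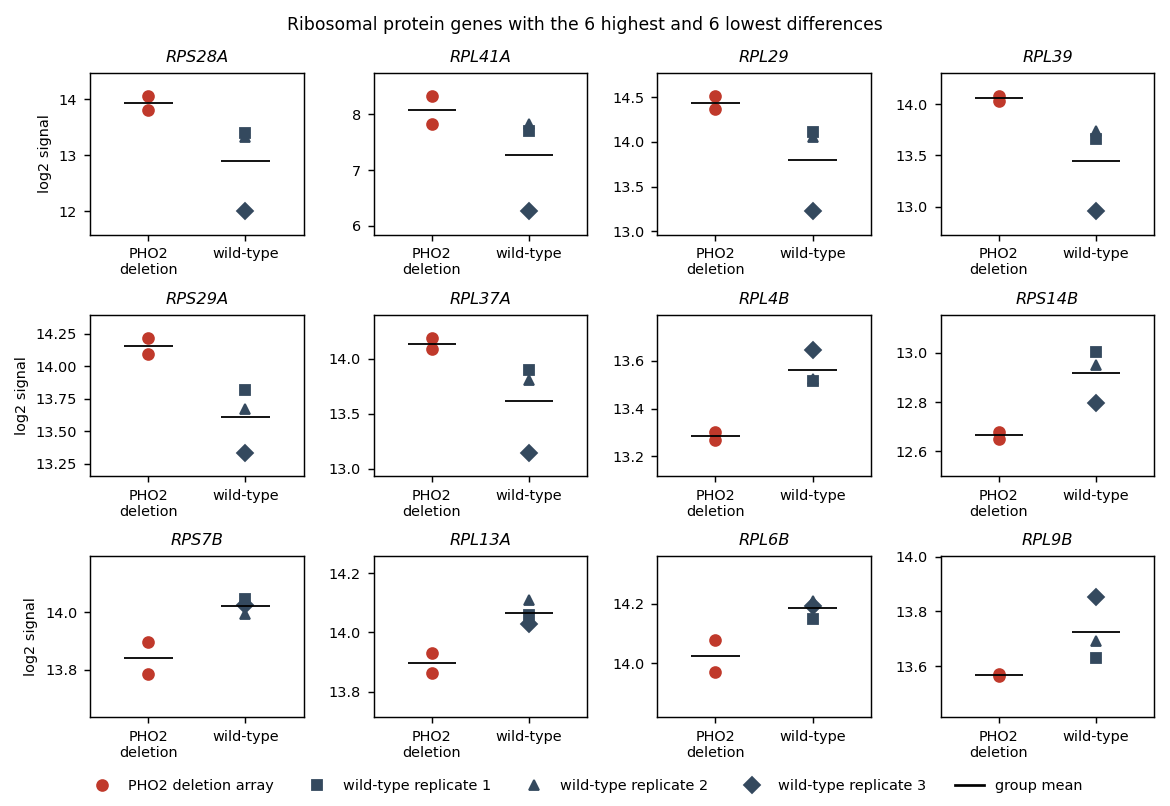
Log2 signal (y axis, scaled to each gene) on the PHO2 deletion arrays (left) and the wild-type arrays (right) for the 6 ribosomal protein genes with the highest and the 6 with the lowest difference. Points are arrays and bars are group means, and wild-type replicate 3 (diamond) is the lowest point of RPS28A, RPL41A, RPL29, RPL39, RPS29A and RPL37A.

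The ribosomal stalk, a flexible arm that recruits the elongation factors, is made of RPP0 as the base and pairs of the acidic proteins encoded by RPP1A, RPP1B, RPP2A and RPP2B. RPP0 (YLR340W) gave 14.64 and 14.63 on the PHO2 deletion arrays, against 14.73, 14.73 and 14.77 on the wild-type arrays, a difference of -0.11 (SE 0.05, limma adjusted p = 0.223). RPP1B (YDL130W) gave 14.25 and 14.36 on the PHO2 deletion arrays, against 14.19, 14.11 and 13.50 on the wild-type arrays. RPP1A (YDL081C) gave 14.25 and 14.33 on the PHO2 deletion arrays, against 14.17, 14.23 and 13.81 on the wild-type arrays. In the RPP1 genes the PHO2 deletion arrays were above all wild-type arrays and wild-type replicate 3 was again far below the others, whereas RPP0 lay lower on both PHO2 deletion arrays. The differences were 0.37 for RPP1B (SE 0.22) and 0.22 for RPP1A (SE 0.14), and without wild-type replicate 3 they were 0.15 and 0.09. RPP2A (0.05, SE 0.08) and RPP2B (0.07, SE 0.08) overlapped between the groups. Without wild-type replicate 3 RPP2A turned to -0.01 and RPP2B was 0.0055.

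Of the ribosomal proteins made as fusions to ubiquitin, RPS31 (YLR167W) was among the steadiest members. It gave 14.69 and 14.70 on the PHO2 deletion arrays, against 14.67, 14.67 and 14.69 on the wild-type arrays, a difference of 0.01 (SE 0.05, 95% interval from -0.11 to 0.14). RPL40A (YIL148W) gave 14.49 and 14.50 on the PHO2 deletion arrays, against 14.41, 14.39 and 14.26 on the wild-type arrays. RPL40B (YKR094C) gave 14.01 and 13.96 on the PHO2 deletion arrays, against 13.93, 13.95 and 13.89 on the wild-type arrays. Both RPL40 genes lay above all wild-type arrays by small steps, with differences of 0.14 (SE 0.07) and 0.06 (SE 0.05) and limma adjusted p of 0.218 and 0.476.

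Within the set, the difference went with gene length. Length here runs from start to stop codon with introns included, so for the many ribosomal protein genes with an intron it exceeds the coding length. Across the 127 members, which are not independent replicates and share the same arrays, the difference and log2 length had a Pearson r of -0.58 and a Spearman rho of -0.48. Over all 5449 genes r was -0.40 and rho -0.40. Leaving out wild-type replicate 3 gave r = -0.53 and rho = -0.47 in the members. The 7 members of at most 300 nt, RPL29, RPL38, RPL41A, RPS28A, RPS28B, RPS29A and RPS29B, all had positive differences, with a median of 0.55, or 0.31 without wild-type replicate 3. The smallest of these was that of RPS28B, at 0.0025. In the 27 members over 300 and up to 600 nt the median was 0.06, in the 60 over 600 and up to 900 nt it was 0.05, and in the 33 longer ones -0.07. These 3 medians were 0.03, 0.03 and -0.06 without wild-type replicate 3. Over all genes the median was 0.43 for 243 genes of at most 300 nt, 0.28 for 665 genes over 300 and up to 600 nt, 0.07 for 865 genes over 600 and up to 900 nt and -0.04 for 3676 longer ones. The members over 300 and up to 600 nt thus had a smaller median than all genes of that length, a difference that was not tested.

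The arrays within the wild-type group also parted by length. In the members of at most 300 nt the median deviation from the wild-type mean was 0.49 and 0.61 on the PHO2 deletion arrays, against 0.21, 0.14 and -0.32 on the wild-type arrays. Both PHO2 deletion arrays were thus the highest, and the wild-type arrays were themselves spread over a range nearly as wide as the step between the groups. In the members over 900 nt it was -0.04 and -0.09 on the PHO2 deletion arrays, against -0.0013, -0.00017 and 0.0069 on the wild-type arrays. Here the wild-type arrays were close together and both PHO2 deletion arrays lay below them, and 25 of the 33 long members had negative differences. Of all 3676 genes over 900 nt, 2214 had negative differences. Their median deviations were -0.02 and -0.07 on the PHO2 deletion arrays, against -0.01, -0.0071 and 0.02 on the wild-type arrays. Wild-type replicate 3 was the lowest of all 5 arrays for 53.5% of members and for 27.6% of all genes, which are longer. In the 4 length classes, from short to long, it was lowest for 85.7%, 70.4%, 61.7% and 18.2% of members. The shares for all genes of these lengths were 58.8%, 71.4%, 42.0% and 14.3%. After the correction for gene length the median of the set was -0.09 against -0.03 for all genes. The part of RNA quality or labelling in the length relation was not tested.

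**Figure D3:**
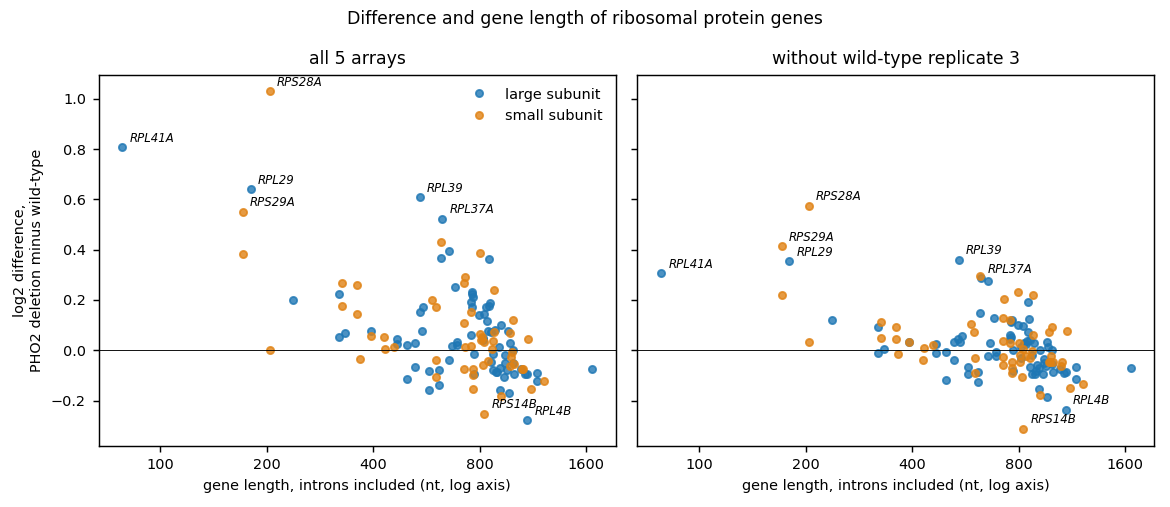
Log2 difference, PHO2 deletion minus wild-type (y axis), against gene length in nt on a log axis (x axis) for the 127 ribosomal protein genes, with all 5 arrays (left) and without wild-type replicate 3 (right). The shortest genes lie highest in both panels, and RPS28A drops to 0.57 in the right one.

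**Figure D4:**
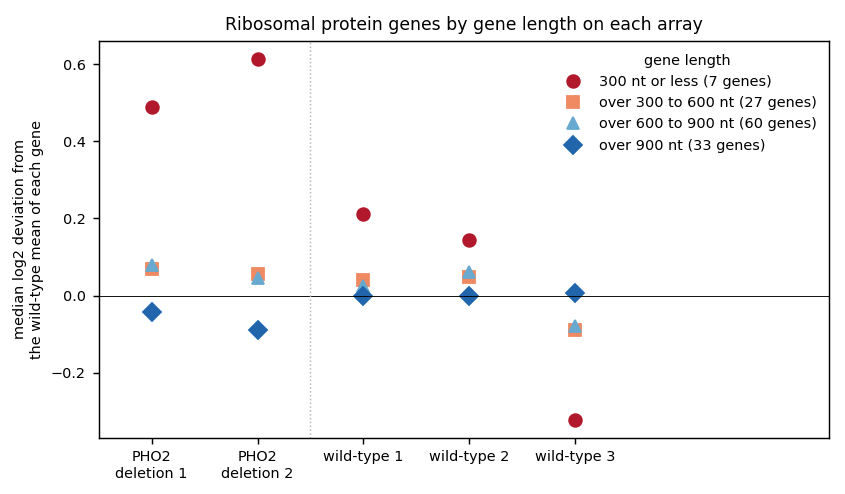
Median log2 deviation of ribosomal protein genes from their wild-type means (y axis) on each array (x axis), by class of gene length. Genes of at most 300 nt lie at 0.49 and 0.61 on the PHO2 deletion arrays and spread to -0.32 on wild-type replicate 3, while genes over 900 nt stay near 0.

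Paralogs were compared through the log2 ratio of A over B on each array, since their probes differ and the levels of A and B cannot be set side by side. Of 59 A and B pairs, 50 had both genes measured, and in 35 of them the probe set used for each gene was unmarked, its own. In the other 15 pairs the probe set with the highest mean was marked for either or both genes. Most of the genes so marked also had an unmarked probe set, which was not used for the ratios. Among these 35 the difference of the ratio between the groups, called the pair difference, had a median of 0.03 and a median size of 0.09 log2 units. It was positive, with the signed difference of A above that of B, in 22 pairs and negative in 13. Only 3 pairs differed by more than 0.2 units in either direction. The ratios did not overlap between the groups in 19 of the 35 pairs (54.3%), while the signals of 53.0% of all single genes did not overlap, in either direction. With groups of 2 and 3 arrays a permutation allows 10 splits, so its exact two-sided p cannot go below 0.10. No moderated test was run on the ratios, and the pairs below were picked by the size of their difference, so they are given as a description. Across the 35 pairs the differences of A and B correlated with a Pearson r of 0.47 and a Spearman rho of 0.70, and with r = 0.73 and rho = 0.74 without the RPS28 pair. These values share the same 5 arrays.

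The RPS28 genes, which are equally long at 204 nt and encode nearly the same protein, had the largest pair difference. The log2 ratio of RPS28A over RPS28B was 0.37 and 0.70 on the PHO2 deletion arrays, against 0.03, -0.05 and -1.46 on the wild-type arrays. The PHO2 deletion arrays were above the wild-type arrays, but wild-type replicate 3 stood much further from the other wild-type arrays. The pair difference was 1.03. RPS28B itself was nearly level, with 13.45 and 13.36 on the PHO2 deletion arrays, against 13.37, 13.37 and 13.46 on the wild-type arrays. Without wild-type replicate 3 the pair difference was 0.54.

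In the RPS14 pair the groups were clearly apart and the replicates close together. The log2 ratio of RPS14A over RPS14B was 1.73 and 1.78 on the PHO2 deletion arrays, against 1.39, 1.42 and 1.37 on the wild-type arrays. The means were 1.76 ± 0.04 (SD, n = 2) on the PHO2 deletion arrays and 1.40 ± 0.02 (SD, n = 3) on the wild-type arrays, a pair difference of 0.36, and 0.35 without wild-type replicate 3. RPS14A differed by 0.11 and RPS14B by -0.25, so the members of this pair lay on opposite sides of no difference. The RPS22 pair ran the other way, at log2 ratios of 0.50 and 0.42 on the PHO2 deletion arrays, against 0.64, 0.65 and 0.64 on the wild-type arrays. Its pair difference was -0.18, or -0.19 without wild-type replicate 3, with RPS22B at 0.24 and RPS22A, for the same small subunit protein, at 0.06. The correction for gene length moved it to -0.51, with RPS22B at 876 nt against 393 nt for RPS22A. These lengths include introns, so they need not be those of the spliced transcripts, and the corrected value is limited by that.

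The RPS27, RPL31 and RPL33 pairs, whose pair differences lay in size between those of RPS14 and RPS22, did not overlap between the groups either. The log2 ratio of RPS27A over RPS27B was -0.47 and -0.61 on the PHO2 deletion arrays, against -0.40, -0.37 and -0.21 on the wild-type arrays, a pair difference of -0.22. With the correction for gene length, which again counts introns, it was -0.33. For RPL31 the ratio was 0.38 and 0.46 on the PHO2 deletion arrays, against 0.31, 0.29 and 0.09 on the wild-type arrays, a pair difference of 0.19. For RPL33 it was 0.30 and 0.31 on the PHO2 deletion arrays, against 0.47, 0.38 and 0.63 on the wild-type arrays, a pair difference of -0.19. In each of these 3 pairs wild-type replicate 3 was the wild-type array furthest from the PHO2 deletion arrays, and without it the pair differences were -0.16, 0.12 and -0.12. At the other end stood the stalk pair RPP2, with a pair difference of -0.02, and RPL16, with -0.01. The log2 ratio of RPL16A over RPL16B was -0.02 and -0.02 on the PHO2 deletion arrays, against 0.02, -0.02 and -0.03 on the wild-type arrays.

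**Figure D5:**
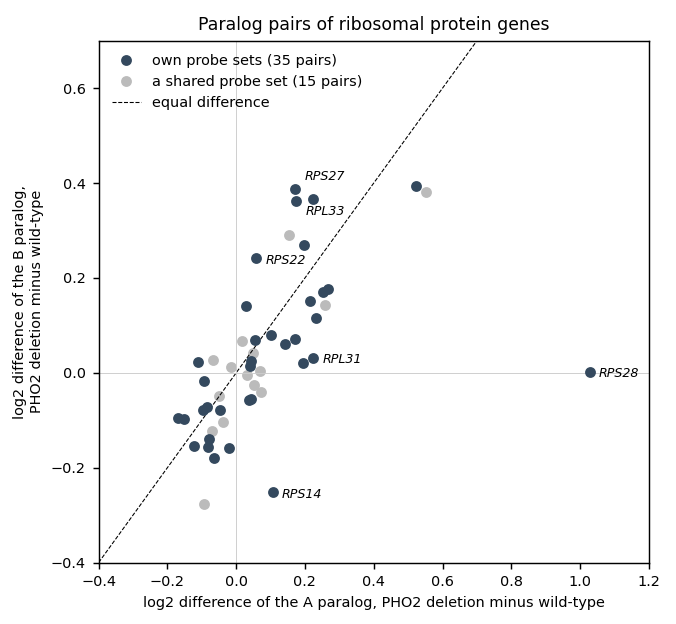
Log2 difference, PHO2 deletion minus wild-type, of the A paralog (x axis) and the B paralog (y axis) for 50 pairs of ribosomal protein genes, with the 35 pairs measured by their own probe sets in dark. Most pairs lie near the dashed line of equal difference, RPS28 lies far to the right of it, and RPS14 below it.

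Probe set design limits what can be said of single paralogs. The probe sets used were unmarked for 102 members, marked as shared for 20 and marked as cross-reacting for 5. Of the 20 members with 2 probe sets, 18 had differences within 0.1 log2 units of each other, and the median gap was 0.04. In 3 of them, RPL18B, RPL14B and RPS17B, the probe sets had opposite signs. RPL18B, for a large subunit protein, had the widest gap. Its shared probe set gave 0.00, while its unmarked one gave 13.21 and 13.08 on the PHO2 deletion arrays, against 13.37, 13.46 and 13.54 on the wild-type arrays, a difference of -0.31. By that probe set RPL18B would have the lowest difference of all members.

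Among genes that act on ribosomal proteins or their transcription 1 was called over 4 lists, where 3.17% of all genes were called upward and 1.87% downward. In the list for transcription of ribosomal protein genes 0 of 18 rose and 0 fell, with a median difference of -0.04 beside 0.01 over all genes. RAP1 differed by -0.03 (SE 0.07), SFP1 by -0.02 (SE 0.07), IFH1 by -0.14 (SE 0.06) and FHL1 by -0.18 (SE 0.07), with limma adjusted p from 0.174 to 0.865. RAP1 and SFP1 turned positive, at 0.0067 and 0.0023, without wild-type replicate 3. FHL1 gave 9.87 and 9.96 on the PHO2 deletion arrays, against 10.18, 10.11 and 10.01 on the wild-type arrays, so its groups did not overlap. The same held, with the deletion lower, for 27.8% of this list and for 25.9% of all genes, which is near to it. Of 15 chaperones and importers of ribosomal proteins 0 rose and 0 fell (median -0.11). Of 14 enzymes that modify ribosomal proteins or nascent chains 0 rose and 1 fell (median -0.10). The fallen gene was NAT1, a subunit of the N-terminal acetyltransferase NatA, with 12.10 and 12.12 on the PHO2 deletion arrays, against 12.47, 12.45 and 12.49 on the wild-type arrays (difference -0.36, SE 0.05, limma adjusted p = 0.0297). NAT1 missed the threshold without either PHO2 deletion array or without wild-type replicate 1 or 2 (adjusted p from 0.0519 to 0.214). Of 17 factors bound to the ribosome 0 rose and 0 fell (median -0.08). Among them ASC1, the yeast form of the scaffold RACK1, differed by -0.08 (SE 0.05), and STM1, which guards idle ribosomes, by -0.12 (SE 0.06). Neither overlapped between the groups. Negative differences were seen for 12 of the 15 chaperones and importers, 12 of the 14 enzymes and 13 of the 17 bound factors. Groups did not overlap with the deletion lower for 53.3%, 42.9% and 58.8% of these lists, against 25.9% of all genes. With the deletion higher it was 6.67%, 0% and 17.6%, against 27.1%. This lean was not tested.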

How the data were processed

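Transcript levels were measured on 5 Affymetrix arrays, 2 labelled PHO2 deletion and 3 labelled wild-type, with groups and replicate numbers taken from the titles. Each deposited value is the intensity of a probe set, on a linear scale from 9.49 to 37719. R 2.8.0, affy and RMA are named, per the submitters' processing notes. RMA gives log2 values, so a return to the linear scale is inferred from the values. Log2 was taken before every comparison, and no column of another sample was found (0 columns). Over all 10928 probe sets the median signal was 313 and 297 on the PHO2 deletion arrays, against 260, 253 and 244 on the wild-type arrays. Over the 5449 genes used the median log2 difference was 0.01. What part this offset has in the differences of dim genes was not tested. Probe sets were named through the platform annotation and the gene table of assembly R64 (5498 probe sets, 5449 genes), and for 47 genes with several probe sets the one with the highest mean over the 5 arrays was used. A background bound of 6.44 (log2) was set from the 1747 annotated probe sets not matched to a single gene, so that 95% of their values fell below it. Any probe set annotated to several genes was left among these.

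All genes were fitted together (limma 3.58.1, R 4.3.3, two-sided moderated tests by lmFit with eBayes, 3 residual and 2.23 prior degrees of freedom), with Benjamini-Hochberg adjustment over all 5449 genes and a threshold of 0.05. The SE of a difference is the moderated one from that fit, and an SD covers the 2 or 3 arrays of its group. The script was tested on simulated data. The members, lists and alternatives were chosen with earlier results of these data known. The genes named were every called member, the 6 highest and 6 lowest differences, the stalk genes, the ubiquitin fusions, the 6 pairs with the largest and the 2 with the smallest pair difference among pairs measured by their own probe sets, members with 2 probe sets where they disagree, the called genes of the lists, and RAP1, FHL1, IFH1, SFP1, ASC1 and STM1. The alternatives were quantile normalization again, the replicate number as a block, leaving out each array, a trend in eBayes, array weights, a loess correction for gene length (span 0.5), the lowest probe set of a gene, leaving out dim genes, and an offset of 50 on the linear scale. Taking the gene's own probe set first was added after seeing the data. Promoter and protein sequences were not used here.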

Additional observations from a re-analysis of the deposited data

How the results depend on the processing

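The count of ribosomal protein genes called was 0 under each alternative except 3. It was 1 with a trend in eBayes (RPL4B), 2 with array weights (RPL4B and RPS14B) and 1 with the gene length correction (RPS15 at -0.30, adjusted p = 0.0422, named after its value was seen). Over all genes 275 were called, 35 with the replicate block, 638 with array weights, and from 19 to 257 without any 1 array. The labels do not say that shared replicate numbers mark a shared batch, and the replicate block called 0 ribosomal protein genes, with a median of 0.0020, and under it NAT1 (adjusted p = 0.159, limma) and STE3 (0.085) were not called. The median difference of the set was -0.094 with the gene length correction, which uses lengths with introns, and from 0.0020 to 0.054 without any 1 array. The large minus small subunit median ran from -0.0096 to 0.011 without any 1 array. Of 35 pairs, 19 did not overlap, 24 with the gene length correction, and from 20 to 26 without any 1 array, where fewer arrays have to part. With the gene length correction RPS29A turned to -0.023, RPP1A to -0.24, RPP2A to -0.41, RPP2B to -0.38, RPL40B to -0.052, RPS31 to -0.32 and SFP1 to 0.0029. No PHO2 deletion array bears replicate number 3, so differences under the replicate block equal those without wild-type replicate 3. The block is thus no separate check of them. In both, RPP2A turned to -0.011, RAP1 to 0.0067 and SFP1 to 0.0023. Without any 1 array RPP2A ran from -0.011 to 0.099, RAP1 from -0.079 to 0.0067, SFP1 from -0.063 to 0.022 and PHO2 from -0.48 to 0.29. The cause of these turns was not tested. The small number of arrays limits the precision.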
